A study of Homo sapiens with 6 samples.

Results

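The genes described here are the 8 protein kinase C (PKC) isoforms PRKCA, PRKCB, PRKCD, PRKCE, PRKCH, PRKCI, PRKCQ and PRKCZ, taken by name from a table of 61267 genes. All 8 were found. RNA was sequenced from THP-1, a cell line from a human monocytic leukemia, after 48 h with the phorbol ester PMA at 100 ng/ml, a treatment used to turn this line into adherent, macrophage-type cells. The 6 libraries fall into 3 labelled KD and 3 labelled NC, both exposed to PMA, and no library without PMA was analysed here. The labels name neither the target of KD nor the reagent or cell clone behind it, while the series title names the RNA methyltransferase METTL1. Higher and lower mean higher or lower in the libraries labelled KD. Whether the 3 samples of a group are separate cultures is not stated in the labels, and the p-values reflect only their spread, which may be technical.

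PKC isoforms are serine/threonine kinases held closed by a pseudosubstrate segment and opened at the membrane. The classical isoforms, such as alpha and beta, need calcium and diacylglycerol, the calcium-independent ones (delta, epsilon, eta and theta) need diacylglycerol alone, and the atypical ones (iota and zeta) respond to neither and do not bind phorbol esters. PMA takes the place of diacylglycerol on the classical and calcium-independent isoforms, and long exposure is known to deplete their protein, which RNA counts do not measure.

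Total counts per library ran from 41547814 to 42608884 in KD and from 37628972 to 42970216 in NC. METTL1 held 567, 528 and 524 counts in KD and 596, 653 and 642 counts in NC. Its log2 fold change of -0.11 was not past the threshold (adjusted p = 0.216 by edgeR). With library sizes alone it passed (-0.29, edgeR adjusted p = 0.00249), where the median of all tested genes was -0.23. It also passed, at -1.34 (edgeR adjusted p = 7.95e-15), on a scale that held 50 leukocyte-restricted genes level (the leukocyte scale). That scale moved the median of all tested genes to -1.28. All 8 monocyte and macrophage markers examined were detected in both groups, with a summed level of 1780 to 1800 CPM (counts scaled to a common library size) in KD and 910 to 940 CPM in NC. A list of 20 genes of other cell types, chosen with earlier results of these data known, summed to 36.7 to 41.1 CPM in KD and 2980 to 3420 CPM in NC. All 20 of these were lower in KD, and 6 of them (LIN28B, POU3F3, PAX3, ID4, GALNT13 and FGFR2) had no count in any KD library. Their part in the results on PKC genes was not tested. In bulk RNA, fewer cells of a type and less RNA per cell cannot be told apart.

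The promoter windows of 5 members are shown, since 3 of them (PRKCA, PRKCB and PRKCD) were the most abundant of the members that were higher in KD, and PRKCI and PRKCZ are the atypical members, both lower in KD. Each runs from 250 bases before to 50 bases after a RefSeq start (GRCh38.p14), all on the plus strand, and capitals mark GGGCGG or its reverse complement CCGCCC, the core of the SP1 site. The windows are chr17:66302363-66302662 for PRKCA, chr16:23835733-23836032 for PRKCB, chr3:53160959-53161258 for PRKCD, chr3:170222174-170222473 for PRKCI and chr1:2050161-2050460 for PRKCZ.
PRKCA: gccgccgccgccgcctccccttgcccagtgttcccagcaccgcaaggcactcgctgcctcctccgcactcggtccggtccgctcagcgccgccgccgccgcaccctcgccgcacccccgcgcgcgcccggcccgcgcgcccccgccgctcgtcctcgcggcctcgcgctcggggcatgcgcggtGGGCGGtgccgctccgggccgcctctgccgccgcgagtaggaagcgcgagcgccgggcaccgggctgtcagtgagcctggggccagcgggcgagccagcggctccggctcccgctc
PRKCB: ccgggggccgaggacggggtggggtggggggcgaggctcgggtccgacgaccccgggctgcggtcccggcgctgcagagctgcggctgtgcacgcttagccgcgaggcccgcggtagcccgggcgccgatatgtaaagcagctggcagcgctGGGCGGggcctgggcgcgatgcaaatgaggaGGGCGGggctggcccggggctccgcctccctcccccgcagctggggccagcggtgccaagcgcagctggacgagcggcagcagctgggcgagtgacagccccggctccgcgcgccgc
PRKCD: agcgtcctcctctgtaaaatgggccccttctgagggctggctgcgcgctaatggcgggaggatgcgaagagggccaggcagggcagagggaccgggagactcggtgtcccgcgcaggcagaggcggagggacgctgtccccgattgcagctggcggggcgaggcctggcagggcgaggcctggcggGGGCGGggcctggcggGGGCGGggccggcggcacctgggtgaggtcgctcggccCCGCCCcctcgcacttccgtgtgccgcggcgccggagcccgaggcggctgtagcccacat
PRKCI: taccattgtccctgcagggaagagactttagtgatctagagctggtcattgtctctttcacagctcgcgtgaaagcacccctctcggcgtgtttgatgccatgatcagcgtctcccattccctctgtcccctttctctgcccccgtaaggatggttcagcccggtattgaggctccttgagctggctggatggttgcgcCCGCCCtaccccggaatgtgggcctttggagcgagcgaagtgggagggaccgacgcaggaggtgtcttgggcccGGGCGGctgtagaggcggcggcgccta
PRKCZ: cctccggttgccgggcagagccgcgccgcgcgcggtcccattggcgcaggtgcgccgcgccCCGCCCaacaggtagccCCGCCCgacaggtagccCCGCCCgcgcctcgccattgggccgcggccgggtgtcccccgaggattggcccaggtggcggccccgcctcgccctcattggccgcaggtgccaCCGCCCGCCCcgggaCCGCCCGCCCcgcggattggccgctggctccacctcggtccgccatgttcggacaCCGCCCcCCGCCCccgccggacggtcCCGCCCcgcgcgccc

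RefSeq lists 13 such windows for the 8 members, among them 3 for PRKCD and 4 for PRKCZ. Both strands were searched, and matches of one motif may overlap. The SP1 core was in 10 of the 13 windows, against 45% of all 35116 windows. The first PRKCZ window, with 81.0% G and C, held 10 matches, while PRKCI held 2 in a window with 60.7% G and C. Only 2 of the 4 PRKCZ windows held the core, the other with 1 match. PRKCQ held none in its single window of 51.3% G and C. The AP-1 motif TGANTCA was in 0 of the 13 windows and in 7.7% of all windows. GAGGAA, the core of the PU.1 site, was found in 1 window, that of PRKCE, and in 27.9% of all windows. The windows of members higher in KD and of members lower in KD both held the SP1 core, and the deposited counts are per gene, so no value belongs to one start of PRKCD or PRKCZ.

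All 8 PKC genes differed between the groups: PRKCA, PRKCB, PRKCD and PRKCH rose in KD, and PRKCE, PRKCQ, PRKCI and PRKCZ fell, on the scale of all tested genes. On the leukocyte scale PRKCA, PRKCD and PRKCH were lower in KD instead. The KD and NC values did not overlap for any of the 8 genes. This must be read against the whole table, where 76.5% of the 21905 genes tested were past an adjusted p of 0.05, 36.2% higher and 40.3% lower in KD, and in which the groups did not overlap for 78% (edgeR quasi-likelihood test, Benjamini-Hochberg adjustment over all tested genes). The median log2 fold change of the 8 members was -0.20, beside -0.046 for all tested genes. Levels are given as CPM scaled by trimmed mean of M values (TMM), and each log2 fold change, KD over NC, has its standard error (SE) from the same edgeR fit.

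**Figure D1:**
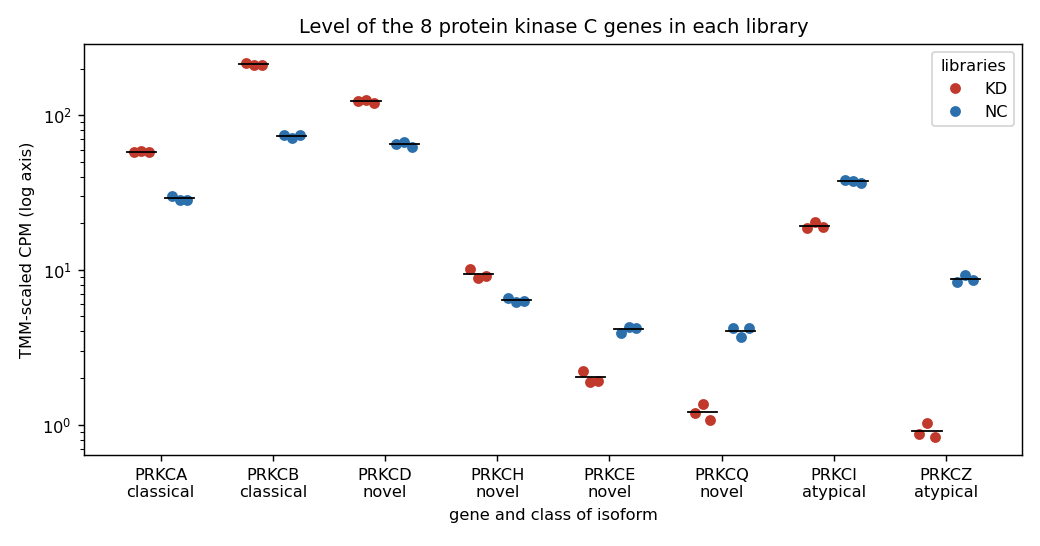
TMM-scaled CPM (log axis) of each PKC gene in the 3 KD and 3 NC libraries, with a bar at each mean, on the scale of all tested genes. PRKCB reached 210 to 219 CPM in KD and 71.3 to 74.6 CPM in NC, while PRKCZ was at 0.836 to 1.02 CPM in KD and 8.37 to 9.32 CPM in NC.

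PRKCA and PRKCB, the classical members, both rose on the scale of all tested genes, and PRKCA was lower in KD on the leukocyte scale. Gene positions are those of the deposited table (GRCh38). PRKCB (chromosome 16, 23835983 to 24220611, plus strand) encodes PKC beta, whose splice forms are made in many blood cells, and it was the member with the most counts. It stood at 218.5, 211.1 and 210.2 CPM in the KD libraries and at 74.6, 71.3 and 74.1 CPM in the NC libraries. Every KD library was well above every NC library, with a log2 fold change of 1.54 ± 0.041 (SE), or 2.91-fold (edgeR adjusted p = 9.4e-21). PRKCA (chromosome 17, 66302613 to 66810743, plus strand) encodes PKC alpha, a widely made isoform. Its levels were 57.7, 59.0 and 57.8 CPM in KD and 30.1, 28.4 and 28.4 CPM in NC. The groups were tight and apart, at a log2 fold change of 1.01 ± 0.048 (edgeR adjusted p = 1.05e-15). Within a library, PRKCB per PRKCA (level per kilobase of exon) was 3.71 ± 0.11 in KD and 2.56 ± 0.0714 in NC (SD, n = 3 each), a ratio that does not depend on scaling between libraries. The exact two-sided permutation p was 0.1, and 0.1 adjusted over the 6 ratios computed, the smallest that 3 against 3 samples can give.

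Of the calcium-independent isoforms PRKCD and PRKCH rose, a direction that turned on the leukocyte scale, and the other two fell. PRKCD (chromosome 3, 53156009 to 53192717, plus strand) encodes PKC delta, which in phagocytes phosphorylates a subunit of the NADPH oxidase and acts in apoptosis. It was at 124.1, 125.2 and 120.7 CPM in KD and at 65.2, 67.3 and 62.4 CPM in NC. Its lowest KD library was far above its highest NC library, and the log2 fold change was 0.93 ± 0.042 (edgeR adjusted p = 3.3e-16). PRKCH (chromosome 14, 61187559 to 61550976, plus strand) encodes PKC eta, an isoform of epithelia, also present in lymphocytes. The KD libraries had 10.1, 8.88 and 9.15 CPM and the NC libraries 6.57, 6.25 and 6.29 CPM. On the scale of all tested genes this was the smallest change among the 8, at 0.56 ± 0.097 (edgeR adjusted p = 1.31e-05). PRKCH shares 1046 exon bases with 4 other genes. One of them, unnamed and on the same strand, shares 419 bases and had 148, 124 and 117 counts in KD and 94, 99 and 93 in NC, so reads there may be counted for both.

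PRKCE and PRKCQ were scarce and lower in KD. PRKCE (chromosome 2, 45651345 to 46187990, plus strand) encodes PKC epsilon, which mouse macrophages need for responses to lipopolysaccharide. Its levels were 2.24, 1.89 and 1.93 CPM in KD, from 88, 74 and 76 counts, against 3.91, 4.27 and 4.21 CPM in NC, from 165, 175 and 190 counts. All KD libraries were below all NC libraries, with a log2 fold change of -1.03 ± 0.151 (edgeR adjusted p = 1.11e-06). PRKCQ (chromosome 10, 6427143 to 6580301, minus strand) encodes PKC theta, the isoform of the T cell synapse. It had 47, 53 and 42 counts in KD and 178, 151 and 191 counts in NC, or 1.19, 1.35 and 1.06 CPM in KD and 4.22, 3.68 and 4.23 CPM in NC. No KD library came near an NC library, and the fall was second only to that of PRKCZ, at -1.75 ± 0.172 (edgeR adjusted p = 1.37e-09). The RNA PRKCQ-AS1, named as antisense to PRKCQ, had 9, 6 and 20 counts in KD and 69, 67 and 67 counts in NC, a log2 fold change of -2.41 ± 0.325 (edgeR adjusted p = 3.35e-07).

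Both atypical isoforms fell. PRKCI (chromosome 3, 170222424 to 170305977, plus strand) encodes PKC iota, which acts with PAR3 and PAR6 in cell polarity. The KD libraries stood at 18.7, 20.3 and 19.0 CPM and the NC libraries at 38.04, 37.6 and 36.7 CPM. All KD libraries were far below all NC libraries, with a log2 fold change of -0.96 ± 0.057 (edgeR adjusted p = 8.98e-14). PRKCZ (chromosome 1, 2050411 to 2185395, plus strand) encodes PKC zeta, the other atypical isoform, which in the brain is also made as a short form from an internal start. Only 34, 40 and 33 counts were found in KD, against 353, 382 and 391 counts in NC, or 0.864, 1.02 and 0.836 CPM in KD and 8.37, 9.32 and 8.65 CPM in NC. PRKCZ had the largest change of the 8 on each of the 3 scales, here a log2 fold change of -3.27 ± 0.146, which is 9.65-fold lower in KD (edgeR adjusted p = 2.29e-16). Between the atypical isoforms, the within-library ratio of PRKCI per PRKCZ was 28.5 ± 1.88 in KD and 5.69 ± 0.343 in NC (SD, n = 3 each, exact permutation p = 0.1, the smallest possible).

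Genes on the other strand share exon bases with PRKCZ, and whether strand was used in counting was not given in the sources used here. Of the 7695 exon bases of PRKCZ, 590 lie in FAAP20, 266 in an unnamed gene and 83 in PRKCZ-AS1. FAAP20 had 237, 283 and 236 counts in KD and 274, 325 and 302 counts in NC and did not pass (log2 fold change -0.13 ± 0.112, edgeR adjusted p = 0.281). The unnamed gene had 4, 6 and 4 counts in KD and 78, 77 and 69 in NC, and PRKCZ-AS1 had 0, 10 and 15 in KD and 55, 56 and 50 in NC. Both of these fell with PRKCZ, at -3.85 ± 0.34 and -2.55 ± 0.464 (edgeR adjusted p = 1.88e-10 and 4.75e-05). PRKCA, PRKCB, PRKCD, PRKCE, PRKCI and PRKCQ share no exon base with another gene of the table. PRKCI has a pseudogene, PRKCIP1, which held 0, 2 and 0 counts in KD and 2, 4 and 2 in NC.

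The directions depend on which genes set the scale between the groups. On the leukocyte scale the 50 genes that set it still ran from -1.10 to 0.55, with 20 higher and 18 lower in KD. PRKCA, PRKCB, PRKCD and PRKCH lay within that range. On the leukocyte scale only PRKCB, of the 8, was higher in KD, at 0.30 ± 0.044 (edgeR adjusted p = 4.65e-07). PRKCA (-0.23 ± 0.05, adjusted p = 0.000146), PRKCD (-0.31 ± 0.045, adjusted p = 4.03e-07) and PRKCH (-0.68 ± 0.098, adjusted p = 4.71e-07) were lower in KD by edgeR on it. The other members lay at -2.19 for PRKCI, -2.27 for PRKCE, -2.98 for PRKCQ and -4.51 for PRKCZ. On that scale 87.4% of all tested genes passed, 3.15% higher and 84.3% lower in KD, so a negative sign there does not set a gene apart. With library sizes alone, all 8 members kept their direction and passed, from 1.35 for PRKCB to -3.46 for PRKCZ, while 75.7% of all tested genes passed, 28.4% higher and 47.3% lower.

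**Figure D2:**
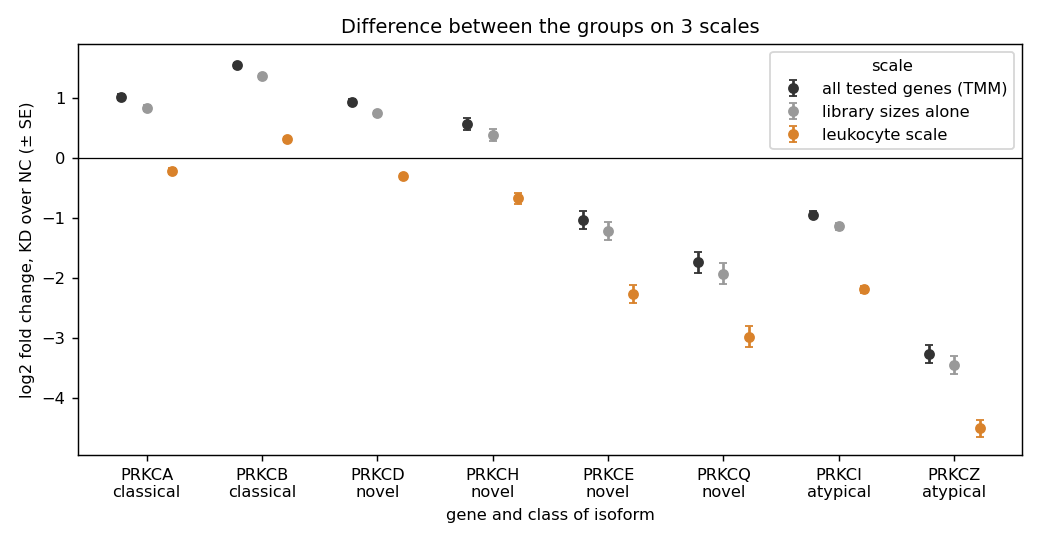
Log2 fold change, KD over NC, with its SE, for each PKC isoform, scaled over all tested genes, with library sizes alone and on the leukocyte scale. PRKCB is above 0 on all 3 scales, PRKCA, PRKCD and PRKCH change sign on the leukocyte scale, and PRKCE, PRKCQ, PRKCI and PRKCZ are below 0 on all 3.

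The place of each PKC gene among the marker genes was read on the scale of all tested genes. The 50 leukocyte genes ran from 0.14 for MNDA to 1.78 for ARHGDIB, and 47 of them were higher in KD. PRKCB exceeded 43 of them, PRKCA 12, PRKCD 10 and PRKCH 3. PRKCE, PRKCI, PRKCQ and PRKCZ lay below all 50. Among the 20 genes of other cell types, 16 had a lower fold change than PRKCZ, 18 than PRKCQ and 19 than PRKCE and PRKCI. In the list, KRT8 was close to PRKCZ, at a log2 fold change of -3.29 ± 0.065, with 5.89 CPM in KD and 57.8 CPM in NC.

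Per kilobase of exon (RPKM, TMM-scaled), PKC mRNA was led by PRKCD in both groups, at 25.1 ± 0.481 RPKM in KD and 13.2 ± 0.50 RPKM in NC (SD, n = 3 each). In KD the order of levels after it was PRKCB (19.3 ± 0.41 RPKM), PRKCA (5.21 ± 0.068), PRKCI (3.34 ± 0.149), PRKCH (1.05 ± 0.071), PRKCQ (0.366 ± 0.044), PRKCE (0.202 ± 0.019) and PRKCZ (0.118 ± 0.013). No neighbours in that order overlapped. In NC it was PRKCB (6.64 ± 0.161 RPKM), PRKCI (6.48 ± 0.118), PRKCA (2.59 ± 0.086), PRKCQ (1.23 ± 0.095), PRKCZ (1.14 ± 0.063), PRKCH (0.712 ± 0.020) and PRKCE (0.414 ± 0.019). There, PRKCB overlapped PRKCI and PRKCQ overlapped PRKCZ. The lengths count every annotated exon, so an isoform that uses part of them is given too low a level.

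The make-up of PKC mRNA, as shares of the summed level per kilobase, needs no scaling between libraries. PRKCB made up 35.8%, 34.7% and 35.4% of it in the KD libraries and 20.6%, 19.8% and 21.1% in the NC libraries. PRKCI had 5.85%, 6.37% and 6.11% in KD and 20.07%, 19.91% and 19.95% in NC. The PRKCB share was higher in every KD library than in any NC library, and the PRKCI share was lower, by differences of 14.8 and -13.9 percentage points, KD minus NC. PRKCD kept the largest share per kilobase, at 45.9% ± 0.293 in KD and 40.8% ± 1.05 in NC (SD, n = 3 each), with no overlap between libraries. By raw counts PRKCB led in every library instead. The PRKCD difference of 5.14 points shrank to 0.36 when raw counts without length scaling were used. In the same way the difference of PRKCA moved to 0.903 points, in place of 1.52, that of PRKCQ to -1.49, in place of -3.13, and that of PRKCH to -0.602, in place of -0.28. PRKCZ held 0.215% ± 0.022 in KD and 3.52% ± 0.196 in NC, and PRKCQ 0.669% ± 0.072 in KD and 3.80% ± 0.321 in NC. PRKCH, which was higher in KD by level, had a lower share there, at 1.91% ± 0.12 in KD and 2.19% ± 0.052 in NC.

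By class, the classical members made up 44.8% ± 0.486 in KD and 28.5% ± 0.796 in NC. The calcium-independent isoforms made up 48.9% ± 0.258 in KD and 48.1% ± 0.701 in NC, with overlapping libraries (exact permutation p = 0.2). On raw counts without length scaling, their differences were 0.36 (PRKCD), -1.34 (PRKCE), -0.602 (PRKCH) and -1.49 points (PRKCQ), KD minus NC. The small difference of this class, and its direction, thus depend on the length scaling. The atypical isoforms made up 6.32% ± 0.279 in KD and 23.5% ± 0.117 in NC. For each of the 8 members the libraries of the groups did not overlap in share, and each exact two-sided permutation p was 0.1, or 0.1 adjusted over the 8, the smallest that 3 against 3 samples allow. Summed over the 8 genes, the level was 54.7 ± 0.867 RPKM in KD and 32.4 ± 0.521 RPKM in NC (SD, n = 3 each), 1.69-fold higher in KD on the scale of all tested genes. The direction turned on the leukocyte scale, where the sum was 35.6 ± 0.834 RPKM in KD and 49.8 ± 0.40 RPKM in NC, a ratio of 0.715, KD over NC. With library sizes alone the ratio was 1.48.

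**Figure D3:**
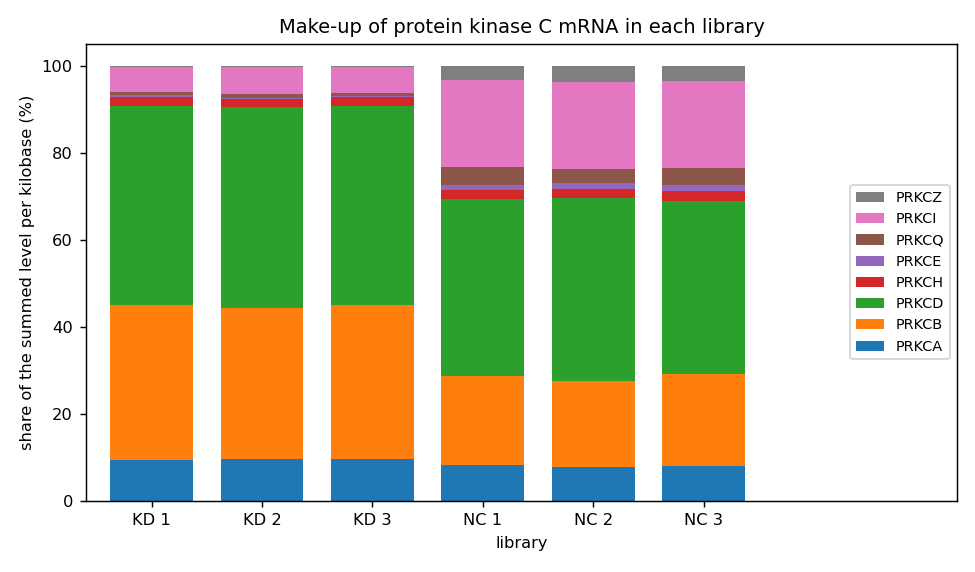
Share of each PKC gene in the summed level per kilobase of the 8 genes, stacked from 0 to 100% for each library. The KD libraries hold more PRKCB (34.7% to 35.8%, against 19.8% to 21.1% in NC) and less PRKCI (5.85% to 6.37%, against 19.9% to 20.1% in NC).

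Genes that make or remove diacylglycerol were examined as lists, whose counts are to be read beside the 36.2% higher and 40.3% lower among all tested genes. With library sizes alone those shares were 28.4% and 47.3%, and on the leukocyte scale 3.15% and 84.3%. Of 13 phospholipase C genes, which release diacylglycerol, 11 were tested, and 3 rose and 8 fell in KD, with a median log2 fold change of -0.85, beside -0.046 for all tested genes. PLCB2 (0.68 ± 0.046) and PLCB3 (0.44 ± 0.043), coupled to receptors through G proteins, rose, and PLCB4 (-5.53 ± 0.165) and PLCG1 (-1.82 ± 0.056), which is coupled to tyrosine kinases, fell. PLCG1 had 17.1 ± 1.26 CPM in KD and 60.6 ± 0.433 CPM in NC. Of 10 diacylglycerol kinases, which convert diacylglycerol to phosphatidic acid, 8 were tested, 5 rose and 1 fell, or 4 and 1 with library sizes alone. DGKD (0.73 ± 0.05) and DGKZ (0.56 ± 0.045) rose, and DGKE (-0.90 ± 0.101) was the one that fell. On the leukocyte scale 0 of the phospholipases were higher and 11 lower, and 1 kinase was higher and 7 lower.

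Genes of proteins that mature PKC or shut it off gave 6 higher and 4 lower of 11, beside the same 36.2% and 40.3% of all tested genes. The balance turned to 4 higher and 5 lower with library sizes alone, beside 28.4% and 47.3% of all tested genes. RICTOR, a subunit of the mTOR complex that phosphorylates PKC as it matures, rose (71.1 ± 2.11 CPM in KD, 38.6 ± 1.73 CPM in NC), as did the chaperone HSP90AB1 (0.70 ± 0.057). The kinase MTOR (-0.48 ± 0.046) and the PKC phosphatase PHLPP2 (-0.71 ± 0.074) fell. PHLPP1, the relative of PHLPP2 in the same list, rose (0.77 ± 0.095). All 11 were lower on the leukocyte scale, as were 84.3% of all tested genes.

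Among 14 substrates and anchors 13 were tested, and 5 rose and 6 fell in KD, beside 36.2% and 40.3% of all tested genes. When only library sizes set the scale, 4 rose and 8 fell, beside 28.4% and 47.3% of all tested genes. Pleckstrin (PLEK), the major PKC substrate of platelets and also made by leukocytes, rose (1480 ± 77.7 CPM in KD, 572 ± 10.8 CPM in NC), beside the scaffold SDCBP (1.11 ± 0.042). AKAP12, which anchors PKC and protein kinase A, fell (30.0 ± 0.979 CPM in KD, 624 ± 34.2 CPM in NC), with the adducin ADD2 (-1.99 ± 0.064). On the leukocyte scale PLEK stayed higher (0.13, edgeR adjusted p = 0.0174), the single member of this list to do so. On that scale 11 were lower, beside 84.3% of all tested genes.

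The partners of the atypical isoforms had 2 higher and 7 lower of 10 tested, beside 36.2% and 40.3% of all tested genes. PARD3 (-2.31 ± 0.067), the PAR3 polarity protein, and its relative PARD3B (-8.95 ± 0.30) fell. PARD3B was at 0, 0.051 and 0 CPM in the KD libraries (mean 0.017 CPM) and at 9.86 CPM in NC. With KD at the floor, the size of its fold change is uncertain beyond its SE. SQSTM1, the p62 adaptor that binds atypical PKC, rose (444 ± 15.1 CPM in KD, 255 ± 8.53 CPM in NC), and so did the GTPase CDC42 (0.25 ± 0.043). With library sizes alone 1 was higher and 8 lower, beside 28.4% and 47.3% of all tested genes. On the leukocyte scale all 10 were lower, as were 84.3% of all tested genes.

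The complex that links PKC to NF-kB had 3 higher and 2 lower of 6 tested, beside 36.2% and 40.3% of all tested genes. CARD9, the myeloid adaptor downstream of PKC delta, rose (40.6 ± 1.13 CPM in KD, 16.7 ± 0.796 CPM in NC), with the protease MALT1 (1.00 ± 0.052). CARD10 (-1.06 ± 0.071) and CARD14 (-1.54 ± 0.174), known from non-blood cells and skin, fell. On the leukocyte scale 0 were higher and 4 lower, beside 3.15% and 84.3% of all tested genes, and CARD9 was at 0.049. The PKC-related kinases PKN2 (-1.30 ± 0.053) and PKN3 (-2.64 ± 0.136) fell. Bracketed values for listed genes are log2 fold changes ± SE, or the mean level ± SD (n = 3 each), and every gene said to rise or fall passed an adjusted p of 0.05 by edgeR on the scale of all tested genes. The 20 genes of other cell types were lower in KD throughout, as given above, and their part in these falls was not tested.

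**Figure D4:**
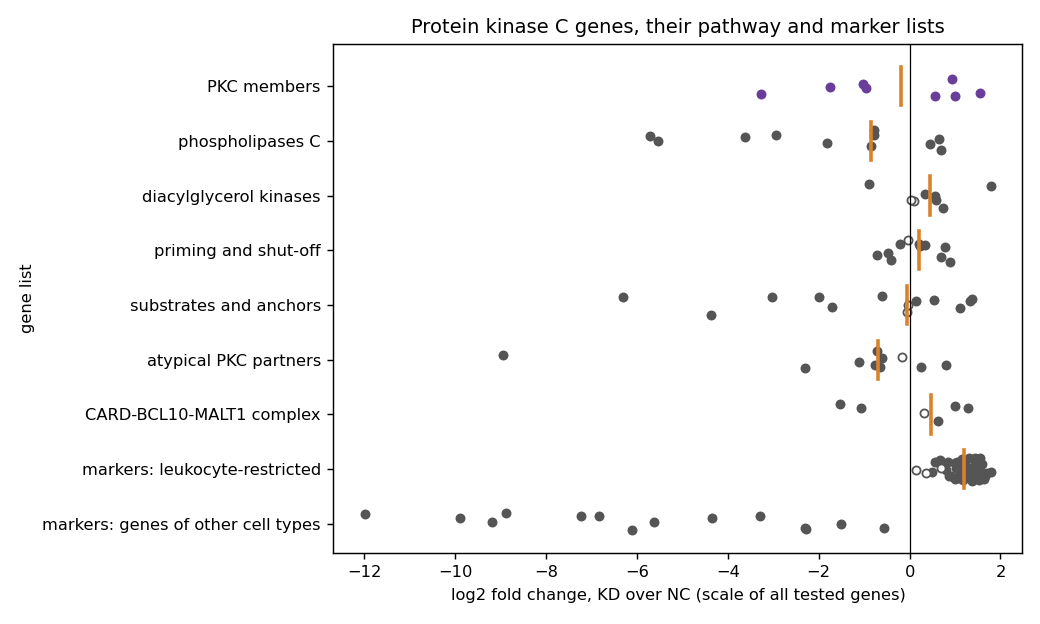
Log2 fold change, KD over NC, on the scale of all tested genes for the PKC genes (purple), their pathway lists and the 2 marker lists. Filled points passed an adjusted p of 0.05, open points did not, and orange bars are medians, with no bar for the genes of other cell types. The 6 marker genes with no KD count are not drawn, and the leukocyte-restricted genes lie between 0.14 and 1.78.

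Likeness of pattern was measured as the root-mean-square difference of log2(CPM + 0.5) over the 6 libraries, each gene centred on its mean, against 14519 other tested protein-coding genes. The nearest gene was APOL6 for PRKCA, KYNU for PRKCB, CC2D1B for PRKCD, VDAC1 for PRKCH, TTC27 for PRKCE, ELP2 for PRKCQ, YARS1 for PRKCI and CBX2 for PRKCZ, at differences of 0.0078 to 0.028. With tight groups the measure mostly reflects the size of the difference between KD and NC, and the added 0.5 CPM shrinks it for scarce genes. The log2 fold change was -0.925 for TTC27 and -1.03 for PRKCE, -1.43 for ELP2 and -1.75 for PRKCQ, and -2.945 for CBX2 and -3.27 for PRKCZ. A difference under 0.1 was met by 43 genes for PRKCZ, 132 for PRKCQ, 252 for PRKCB and 964 for PRKCH, so that many genes share each pattern across these 6 libraries.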

How the data were processed

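RNA of 6 THP-1 libraries, prepared for DNBSEQ-T7 per the labels' protocols, was measured. Per the submitters' processing notes, fastp 0.23.0 was used and the build was GRCh38. Aligner, counter, annotation release and strand setting: not given in the sources used here. What the authors deposited is a table of raw counts, whole numbers for each gene, with exon coordinates and length. Even numbers made up 67.8% to 70.3% of the counts from 1 to 20 but 50.2% to 51.4% of the counts over 1000, a pattern that arises if each read of a pair counts. Counts may thus hold fewer independent fragments than their number, and the share of even numbers does not settle this for high counts. Replicates differed by more than the sampling noise of independent reads in every pair, at a chi-square of 3.11 to 5.96 for each degree of freedom.

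The test was that of edgeR 4.0.16 under R 4.3.3 (quasi-likelihood, robust, TMM, filterByExpr), two-sided, with Benjamini-Hochberg adjustment over 21905 genes and a threshold of 0.05. The SE was taken as the size of the log2 fold change over the root of its F statistic. The leukocyte scale takes TMM factors from 50 leukocyte-restricted genes. The alternatives were DESeq2 1.42.0, limma-voom (limma 3.58.1), other scalings and filters, counts divided by 2, no robust estimation, a replicate block and leaving out each library. On simulated counts for KD against NC over 21529 genes, this test found 25 of 50 genes that had been changed 1.25-fold. It found 47 of 50 at 1.5-fold and all 50 at 2-fold and at 4-fold, and called 11 of 21329 unchanged genes. Few genes were changed there, as many up as down, each with a mean of at least 50 counts and at a fixed dispersion. The simulation therefore does not cover a table where most genes differ, nor the choice of scale. Members, lists and the leukocyte genes were chosen with earlier results of these data known. The genes named are the members, up to 2 higher and 2 lower per list with the smallest p, the nearest gene by pattern, and genes beside which a result is read. Promoter sequences come from RefSeq, in which all 8 members matched. Figures were drawn with matplotlib 3.10.9. Results for some genes of the lists are not reported here.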

Additional observations from a re-analysis of the deposited data

How the results depend on the processing

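Scaling was the choice that changed directions. On the leukocyte scale PRKCA (-0.23), PRKCD (-0.31) and PRKCH (-0.68) reversed, and the cause was not tested. So did the summed level of the 8 members, whose log2 ratio of 0.75 became -0.48 there and 0.57 with library sizes alone, settings chosen for this sum after seeing the data. That scale moved the median log2 fold change of all tested genes to -1.28, and library sizes alone moved it to -0.23, from -0.046 on the scale of all tested genes. The share of calls that were higher in KD was then 3.6% and 37.5%, in place of 47.3%. Under the other alternatives all 8 members kept direction and passed. Leaving out each library gave 16288 to 16661 genes past the threshold, where all 6 gave 16758, and all 8 members passed each time. The members' log2 fold changes then ran from 1.51 to 1.56 for PRKCB and from -3.36 to -3.21 for PRKCZ. With a replicate block 16428 genes and all 8 members passed. Same-numbered libraries did not deviate together from their group means, with deviations correlated at 0.015, 0.006 and -0.014. Whether the samples were handled in pairs is not stated in the labels. Every list's count of calls stayed within 1.5 times of its value. Depth limits PRKCZ, PRKCQ and PRKCE most, with 33 to 88 counts per KD library.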

Other observations

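Other genes of the lists, named after their values were seen, gave wide differences. PLCB1, a phospholipase C of the beta group, was at 2.47 ± 0.248 CPM in KD and 19.0 ± 0.654 CPM in NC (SD, n = 3 each), and PLCE1, which also binds Ras, was at 0.949 ± 0.038 CPM in KD and 11.8 ± 0.514 CPM in NC. GAP43, a PKC substrate of growing axons, had 0.0846 ± 0.058 CPM in KD and 6.90 ± 0.385 CPM in NC. Neurogranin (NRGN), a PKC substrate best known from neurons, went the other way, with 57.8 ± 4.64 CPM in KD and 22.9 ± 2.65 CPM in NC, a log2 fold change of 1.34 ± 0.072 (edgeR adjusted p = 1.72e-12), and did not pass on the leukocyte scale (0.10, adjusted p = 0.17). DGKI, a diacylglycerol kinase known from the brain, was higher in KD on both scales, at 2.39 ± 0.568 CPM in KD and 0.687 ± 0.084 CPM in NC, with log2 fold changes of 1.80 ± 0.235 (edgeR adjusted p = 2.08e-07) and, on the leukocyte scale, 0.56 (adjusted p = 0.0329).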
